A study of Mus musculus with 8 samples.

Results

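Nuclear genes of the oxidative phosphorylation machinery were followed in mouse liver by direct RNA sequencing, in which a nanopore reads native poly(A) RNA molecules one at a time. The members were the genes whose mouse symbol begins with Nduf followed by a, b, c, s or v, with Uqcr, with Cox and a digit from 4 to 8, or with Atp5, together with Sdha, Sdhb, Sdhc and Sdhd. Symbols that mark pseudogenes were left out. The rule found 93 of the 27453 genes listed, of which 44 belong to complex I, 4 to complex II, 8 to complex III, 20 to complex IV and 17 to complex V. They comprise 83 structural subunits or their tissue isoforms, 8 assembly factors of complex I, the supercomplex factor Cox7a2l, and Atp5s, whose symbol places it with complex V. Ndufa4 was counted with complex IV, where the protein sits in spite of its name.

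Liver RNA of C57BL/6JN mice, which are laboratory animals of an inbred line, gave 8 libraries, of which 4 have titles that begin with O and 4 have titles that begin with Y. Each title group held 2 males, replicates 1 and 2, and 2 females, replicates 3 and 4, and no agent or altered gene is named for any of them. Their ages are uncertain, because animals titled O are listed at 12 weeks and animals titled Y at 80 weeks, while the design text contrasts a young group, near 2 months, with an old one, near 18 months. Only the title therefore names a group here, and each fold sets O-titled against Y-titled livers with no direction of age. The design text calls the libraries of a group biological replicates, and the labels give no run dates by which a batch could be looked for.

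Depth ran from 545171 to 2593200 mapped reads per library, so that 3 reads, the least taken as detectable, correspond to between 1.16 and 5.50 counts per 1e6 mapped reads. Levels are given as CPM, counts per 1e6 reads in the tested genes, after TMM scaling, a normalization that sets the bulk of genes to equal levels. A difference was called at a Benjamini-Hochberg adjusted p of 0.05 or less from edgeR's quasi-likelihood test over 6759 genes with enough reads. None of 8 hepatocyte markers was absent, and their sum ranged from 76965 to 107393 CPM over O-titled libraries and from 85168 to 124079 CPM over Y-titled ones. Macrophage markers, 11 in all and 0 called, summed to 570 to 1525 CPM across O-titled libraries, against 685 to 814 CPM across Y-titled ones, with a median log2 fold of 0.49. Of 6 tested stellate cell markers 1, Dcn, was called higher in O-titled livers, with a median of 0.34 and sums of 349 to 407 CPM against 243 to 383 CPM. Of 7 tested sinusoidal endothelial markers 1, Fcgr2b, was called higher, with a median of 0.14 and sums of 240 to 307 CPM against 196 to 282 CPM. The part of these cell types in the results was not tested, and in whole tissue fewer cells of a type and less RNA per cell cannot be told apart.

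Oxidative phosphorylation couples the transfer of electrons from food-derived carriers to oxygen with the pumping of protons across the inner mitochondrial membrane. Complex I takes electrons from NADH and complex II from succinate, complex III passes them to cytochrome c, complex IV delivers them to oxygen, and complex V, the ATP synthase, uses the proton gradient to make ATP. All complexes but the second also contain subunits encoded by mitochondrial DNA, and hepatocytes, which are rich in mitochondria, use the ATP for glucose, urea and protein production.

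Most nuclear subunits of complexes I, III, IV and V were read slightly less often in O-titled than in Y-titled livers, and complex II was not. Summed over all members, the O-titled libraries held 22420, 23465, 22414 and 23779 CPM in replicates 1 to 4, and the Y-titled libraries 26225, 26563, 25036 and 25997 CPM. Every O-titled library lay below every Y-titled one, and the group means of 23019 ± 708 and 25955 ± 656 CPM (SD, n = 4) differed by 11.3%. The 4 genes of complex II summed to 992 ± 88.3 CPM in O-titled libraries, against 998 ± 53.8 CPM in Y-titled ones, with overlapping values. Complex IV showed the widest gap of the 5 complexes, at 5567 ± 274 against 6642 ± 220 CPM, a difference of 16.2%. The gap was 9.71% for complex I, 8.89% for complex III and 11.0% for complex V, and in these too the groups did not overlap. The plot of summed reads shows every library.

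**Figure D1:**
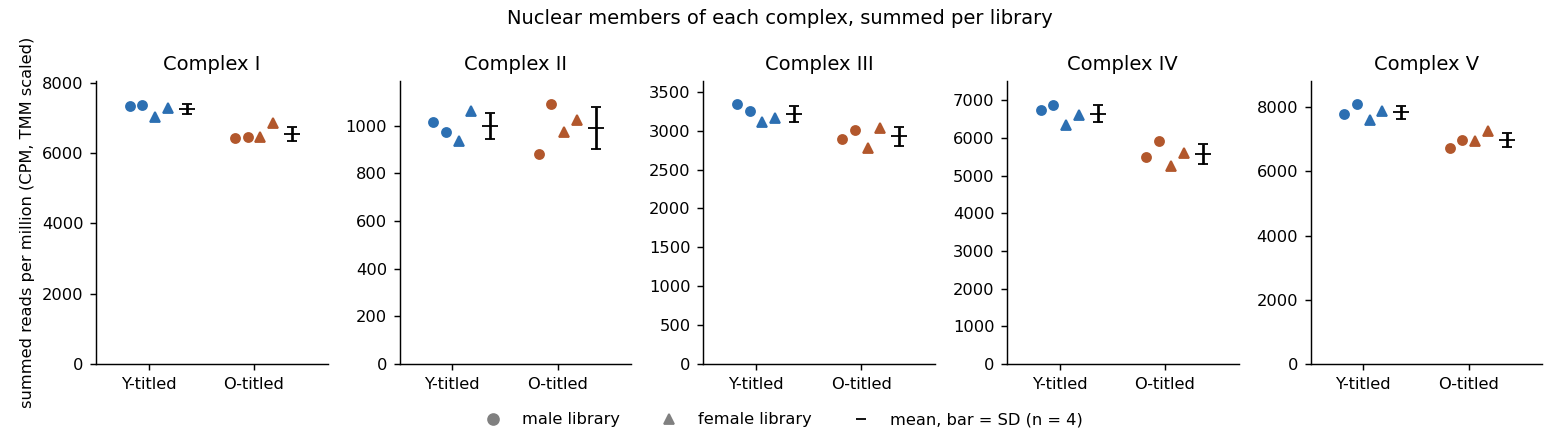
Reads of the nuclear members of each complex, summed per library, in CPM; circles are male and triangles female libraries, and the black mark is the mean with its SD (n = 4). In complexes I, III, IV and V every O-titled library lies below every Y-titled one, and in complex II the groups overlap.

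Gene by gene the differences were small, and none of the 83 tested members was called, although edgeR called 271 of the 6759 tested genes, or 4.01%. Without adjustment, 21 members had p under 0.05 and were lower in the O-titled group, against 8.02% of all tested genes, and 1 member was higher. By the sign of the fitted fold, 70 of the 83 members were lower in O-titled livers, against 50.1% of all tested genes. The median log2 fold was -0.16 over the members and -0.00 over all tested genes. In 23 members every O-titled library lay below every Y-titled one, which held for 4.62% of tested genes, and 1 member, Ndufaf4, lay above in every library, which held for 4.10%. The members share libraries, so these counts describe 1 set of 8 livers and are not independent of each other. DESeq2 called 0 members as well, whereas Ndufaf4 was called with library totals (adjusted p = 0.0248 by edgeR, when 5.03% of all genes were called) and Ndufa13 with limma voom (adjusted p = 0.0478).

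**Figure D2:**
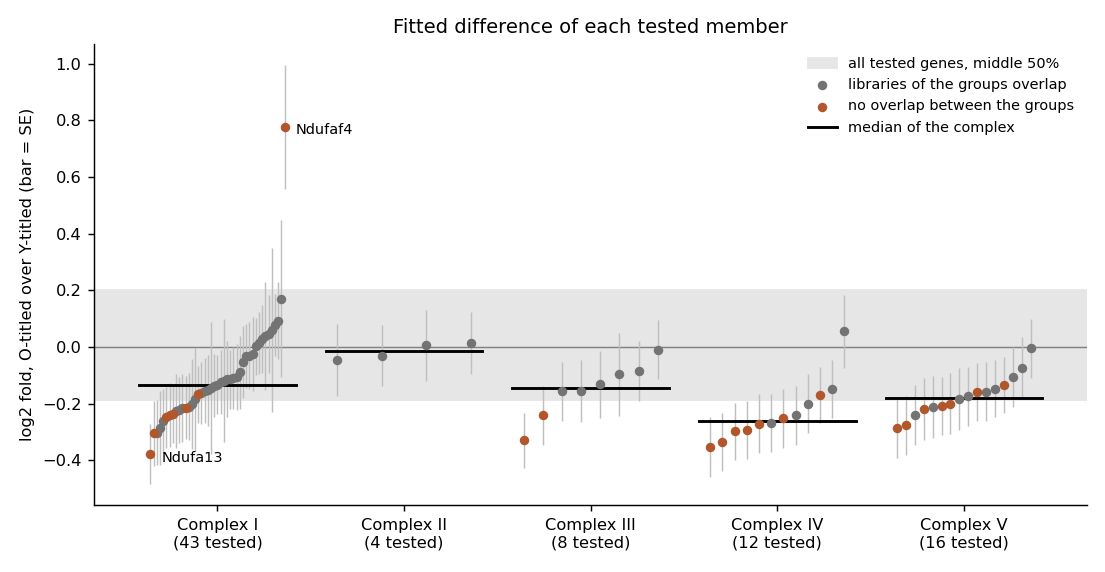
Fitted log2 fold, O-titled over Y-titled, of each tested member by complex, with its standard error; coloured points mark members whose 4 O-titled libraries do not overlap the 4 Y-titled ones, black lines are medians and the grey band holds all tested genes from the lower to the upper quartile. Medians are -0.13, -0.01, -0.14, -0.26 and -0.18 for complexes I to V, and with library totals in place of TMM they are -0.04, 0.08, -0.05, -0.17 and -0.09.

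The size of this difference depended on the scale on which the libraries were compared. With library totals in place of TMM, the median of all tested genes moved to 0.10 and that of the members to -0.06, and 59 of 83 members were lower while 36.2% of all tested genes did. Relative to the all-gene median the members stood 0.16 lower under both scalings, with 70 of 83 below it under TMM and 72 under library totals. A change of scaling moves the folds of all genes nearly alike, so this agreement was set in advance and is no separate result. With all mapped reads as the denominator, the summed members differed by 5.66% and the groups overlapped, as they did for complexes I, III and V. Complex IV was the exception: its summed reads differed by 10.9% with no overlap. Its count of members with no overlap was 7 of 12 on either scale, whereas the count over all members went from 23 to 11. Over all tested genes the share with every O-titled library below every Y-titled one went from 4.62% to 2.72%. The plot of ratios under each denominator sets these values side by side.

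**Figure D3:**
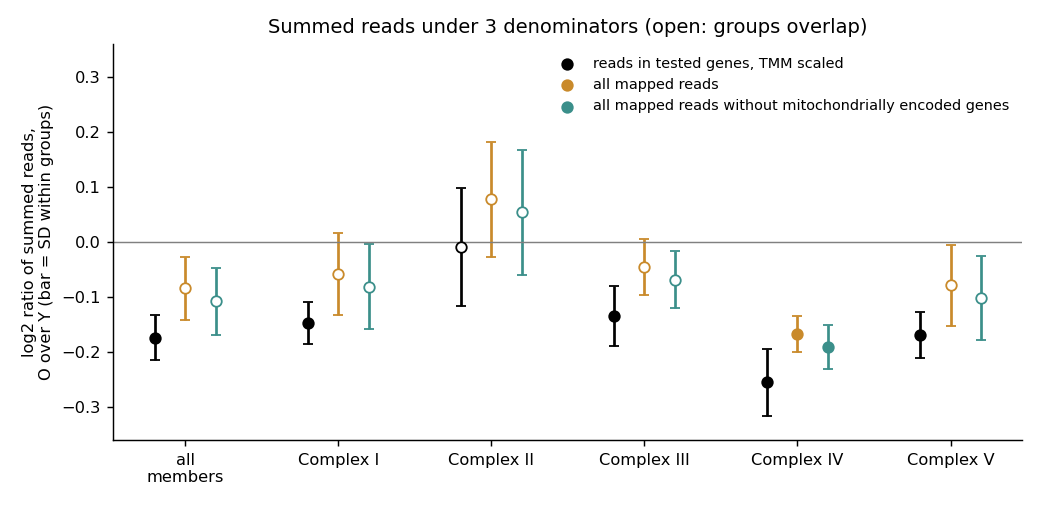
Log2 ratio of summed reads, O-titled over Y-titled, for all members and for each complex under each of the denominators named in the key; bars are the SD within groups, and open symbols mark groups that overlap. Complex IV keeps filled symbols at -0.25, -0.17 and -0.19, whereas complex II lies at -0.01 with TMM and above 0 with both others.

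In complex I, 33 of 43 tested members were lower in O-titled livers, with a median log2 fold of -0.13. The membrane arm, which pumps protons, had 18 of 19 tested subunits lower and a median of -0.19. The peripheral arm, which binds NADH and carries the iron-sulfur clusters, had 11 of 16 lower and a median of -0.11. These medians come from the same libraries and their difference was not tested. Ndufa13 (chr8:69894180-69902558, minus strand), a membrane-arm subunit also known as Grim19, had the smallest p of all members. Its levels were 346, 325, 293 and 273 CPM in O-titled replicates 1 to 4 and 383, 408, 406 and 409 CPM in the Y-titled ones. No O-titled library reached the lowest Y-titled library, and the log2 fold was -0.38 ± 0.11 (SE, adjusted p = 0.0551 by edgeR).

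Other complex I subunits showed narrower gaps. Ndufs7, which carries the last iron-sulfur cluster before ubiquinone, stood at 111 ± 7.12 CPM in O-titled livers, against 138 ± 3.65 CPM in Y-titled ones, a log2 fold of -0.31 with an adjusted p of 0.175. Ndufb9, a membrane-arm subunit, had 355 ± 16.5 against 418 ± 27.1 CPM, and Ndufa6, a peripheral-arm subunit of the LYR family, 430 ± 23.3 against 482 ± 20.5 CPM. With TMM the groups did not overlap for Ndufs7, Ndufb9 or Ndufa6. Over complex I, every O-titled library lay below in 7 of 43 tested members with TMM and in 2 with all mapped reads. The shares of all tested genes were 4.62% and 2.72%. Ndufs1, the largest peripheral-arm subunit, went the other way within error, at 75.9 ± 9.37 against 70.2 ± 2.77 CPM.

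The 8 Ndufaf genes encode factors that build complex I and are not part of it. Of the 7 tested, 3 were lower and 4 higher in O-titled livers, with a median log2 fold of 0.04. Ndufaf4 (chr4:24898083-24905001, plus strand), which takes part in the early assembly of the peripheral arm, was the member with the largest difference in either direction. It was read at 30.0, 30.9, 26.9 and 38.5 CPM in O-titled replicates 1 to 4 and at 23.3, 17.8, 18.4 and 12.6 CPM in the Y-titled ones. All O-titled libraries exceeded all Y-titled ones, by a log2 fold of 0.78 ± 0.22 (SE) with an adjusted p of 0.0569 by edgeR. This rests on 267 reads in all.

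**Figure D4:**
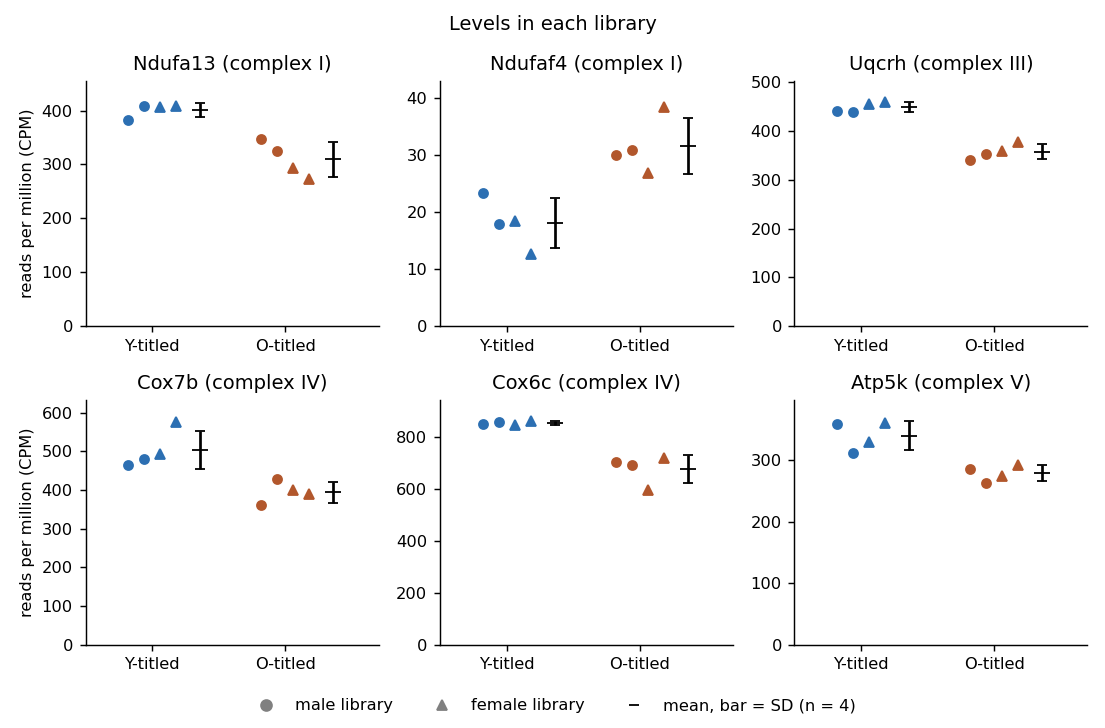
Levels in CPM of 6 members in each library, with circles for males, triangles for females and the mean with SD (n = 4) in black. Ndufaf4 is higher in every O-titled library, and the other members shown are lower in every O-titled library than in any Y-titled one.

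The genes of complex II, which is also an enzyme of the citric acid cycle, showed no common shift. Sdha, the flavoprotein that oxidises succinate, had 242, 341, 241 and 263 CPM in the O-titled and 301, 247, 245 and 278 CPM in the Y-titled libraries. The high value belonged to O-titled replicate 2, and the log2 fold was 0.00 ± 0.12 (SE). Sdhb, the iron-sulfur subunit, had 215, 305, 293 and 317 CPM in the O-titled and 296, 301, 259 and 304 CPM in the Y-titled libraries. The membrane anchors Sdhc and Sdhd differed by log2 folds of 0.01 ± 0.11 and -0.03 ± 0.11 (SE). With library totals in place of TMM all 4 folds were above 0.

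All 8 tested members of complex III were lower in O-titled livers with TMM, and 6 of 8 with library totals. Groups did not overlap for 2 of the 8 with TMM and for 1 with all mapped reads, against 4.62% and 2.72% of all tested genes lying below. Uqcrh, the acidic hinge subunit that contacts cytochrome c1, had 340, 353, 359 and 377 CPM in the O-titled libraries and 442, 439, 456 and 460 CPM in the Y-titled ones. The highest O-titled library was below the lowest Y-titled one, with a log2 fold of -0.33 ± 0.10 (SE, adjusted p = 0.0736 by edgeR). Uqcr10, a small subunit near the Rieske protein, had 267 ± 8.49 against 316 ± 23.9 CPM, also without overlap. Uqcrq, a small subunit that lies beside cytochrome b, was at 848 ± 7.86 CPM in O-titled livers and at 856 ± 87.9 CPM in Y-titled ones, where values ran from 772 to 979 CPM. Its fold was below 0 with TMM and 0.08 with library totals. Uqcr11, another small subunit, had 473 ± 50.0 against 526 ± 27.8 CPM, with overlap. The core proteins Uqcrc1 and Uqcrc2 overlapped between the groups, with log2 folds of -0.13 and -0.10.

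Complex IV, cytochrome c oxidase, had no overlap between the groups in 7 of its 12 tested members, the highest share of the 5 complexes. Every O-titled library lay below in 4.62% of all tested genes with TMM and in 2.72% with all mapped reads. Of its 12 tested members 11 were lower in O-titled livers on each scaling, against 50.1% of all tested genes with TMM and 36.2% with library totals. Lower at an unadjusted p under 0.05 by edgeR were 8 of the 12, against 8.02% of all tested genes. Cox6c, a single-helix subunit, had 704, 693, 597 and 719 CPM in the O-titled libraries and 853, 861, 849 and 863 CPM in the Y-titled ones. The 4 Y-titled values were close together, with an SD of 6.60 CPM, and the log2 fold was -0.34 ± 0.10 (SE, adjusted p = 0.0809 by edgeR). Cox7b, an X-linked single-helix subunit, had 361, 427, 399 and 391 against 466, 481, 494 and 576 CPM, a log2 fold of -0.35 ± 0.11 (SE, adjusted p = 0.0788 by edgeR). Neither gene's groups overlapped.

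Cox5a, a matrix-facing subunit, was at 333 ± 10.7 CPM in O-titled livers, against 410 ± 21.6 CPM in Y-titled ones, and Cox7c at 712 ± 42.6 against 872 ± 47.0 CPM. Ndufa4, which joins complex IV late in its assembly, was at 667 ± 84.4 against 800 ± 39.9 CPM. Cox4i1, the early-assembling subunit 4, stood at 568 ± 47.9 against 654 ± 77.5 CPM with overlapping libraries. Cox7a2l, which is classed as a supercomplex factor and not as a core subunit, was the member above 0, at 142 ± 9.78 against 137 ± 21.5 CPM.

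Several complex IV subunits exist as paired isoforms, one found in most tissues and another enriched in heart and skeletal muscle. In these livers the general forms Cox6a1, Cox7a2 and Cox8a were read 4873, 4670 and 4904 times over the 8 libraries. Their levels were 445 ± 31.9 against 537 ± 37.9 CPM for Cox6a1 and 457 ± 17.2 against 514 ± 19.3 CPM for Cox8a, O-titled first and without overlap. Cox7a2 lay between 383 and 485 CPM in the O-titled libraries, against 478 to 576 CPM in the Y-titled ones, which overlap. Their muscle partners Cox6a2, Cox7a1 and Cox8b had 2, 43 and 5 reads. Of the Cox7a1 reads, 31 came from O-titled and 12 from Y-titled libraries, and its level of 5.14 ± 1.35 against 2.92 ± 2.06 CPM overlapped between the groups. Cox4i2, the lung-enriched form of subunit 4, had 2 reads against 6091 for Cox4i1. Cox6b1, the general form of subunit 6b, had 3988 reads, with 364 to 399 CPM in the O-titled libraries, against 386 to 436 CPM in the Y-titled ones. Cox6b2, a testis form, had 7 reads, and Cox7b2 and Cox8c, also testis forms, had 0 reads. Ndufa4l2, a hypoxia-induced relative of Ndufa4, had 17 reads. None of 8 striated muscle markers had a read in any library. These 8 isoforms, Ndufaf5 and Atp5s made up the 10 members with too few reads to be tested.

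All 16 tested members of complex V were lower in O-titled livers with TMM, and 14 of 16 with library totals. Groups did not overlap for 7 of the 16 with TMM and for 1 with all mapped reads, against 4.62% and 2.72% of all tested genes lying below. The membrane subunits, which hold the dimer and the proton path, had a median log2 fold of -0.26, against -0.13 for the F1 head, where ATP is made, and -0.20 for the peripheral stalk. Atp5k, a small membrane subunit of the dimer interface, had 286, 262, 274 and 293 CPM in the O-titled libraries, against 358, 311, 330 and 361 CPM in the Y-titled ones. Its groups did not overlap, and the log2 fold was -0.29 ± 0.10 (SE, adjusted p = 0.155 by edgeR). Atp5mpl, another small membrane subunit, was at 275 ± 3.15 against 333 ± 27.7 CPM. In the F1 head, the catalytic subunit Atp5b was at 919 ± 93.4 against 986 ± 33.3 CPM and its partner Atp5a1 at 698 ± 27.0 against 766 ± 33.3 CPM. Atp5b overlapped between the groups and Atp5a1 did not. Atp5d, the F1 delta subunit of the central stalk, was at 312 ± 30.0 against 331 ± 41.3 CPM, with a log2 fold of -0.07 with TMM and 0.02 with library totals.

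The rotating c ring is built from one mature protein that 3 genes encode. Atp5g3 was at 732 ± 27.2 against 811 ± 42.5 CPM, O-titled first, Atp5g1 at 380 ± 13.1 against 434 ± 54.5 CPM, and Atp5g2 at 265 ± 10.6 against 265 ± 20.8 CPM. All 3 overlapped between the groups. Over the last 228 coding bases, which hold the mature protein, the most-read transcripts of Atp5g1 and Atp5g2 were identical at 85.1% of positions, and Atp5g3 matched them at 79.8% and 78.5%. The untranslated regions of these transcripts, which reads of poly(A) RNA also cover, were not compared. Whether reads of these genes could be credited to the wrong gene was therefore not tested. How the authors' counting handled such reads is not given in the sources used here.

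Within the sexes, with 2 libraries against 2, the members were again mostly below 0 with TMM, though not in females with library totals. In males 74 of 83 members were lower in the O-titled libraries, against 50.3% of all tested genes, with a median log2 fold of -0.22, and 0 were called while 1.26% of all genes were. Of the 83, 12 were lower at an unadjusted p under 0.05, against 4.48% of all genes. In females 64 of 83 were lower with TMM, against 50.8% of all genes, and the median was -0.10. With library totals 39 of 83 were lower, against 39.4% of all genes, and the female median was 0.01, when that of all genes was 0.10. In females 6 members were lower at an unadjusted p under 0.05, against 8.08% of all genes. Complex IV kept its direction in both sexes on each scaling: its medians were -0.25 in males and -0.22 in females with TMM, and -0.17 and -0.11 with library totals.

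Called in females, where 5.47% of all genes were, were 2 members. Ndufa13 fell by 0.53 on the log2 scale (SE 0.14, adjusted p = 0.0317 by edgeR), and Ndufaf4 rose by 1.09 (SE 0.31, adjusted p = 0.0417). DESeq2 called neither, with adjusted p of 0.19 for Ndufa13 and 0.336 for Ndufaf4, and with library totals Ndufa13 was not called (adjusted p = 0.114 by edgeR). Ndufa13 lost its call when O-titled replicate 3 or 4 or any Y-titled library was left out, with adjusted p up to 0.185. Ndufaf4 lost it without O-titled replicate 4 or Y-titled replicate 3 or 4, with adjusted p up to 0.322. In males the log2 folds were -0.23 for Ndufa13 and 0.48 for Ndufaf4, neither called.

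The difference between the sexes was itself tested and was called for 0 members, when 0.385% of all genes were called. At an unadjusted p under 0.05 it picked out 1 member, against 8.46% of all genes. This was Ndufb10, a membrane-arm subunit, with 104 and 71.2 CPM in O-titled males, 119 and 141 CPM in O-titled females, 123 and 160 CPM in Y-titled males and 115 and 109 CPM in Y-titled females. Its log2 fold was -0.61 in males and 0.22 in females (adjusted p of the difference 0.339 by edgeR). Between females and males as such, 0 members were called, against 2.96% of all genes. Unadjusted p was under 0.05 for 2 of them, Ndufv3, lower in females by a log2 fold of -0.27, and Ndufb4, higher by 0.25, against 12.3% of all genes.

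**Figure D5:**
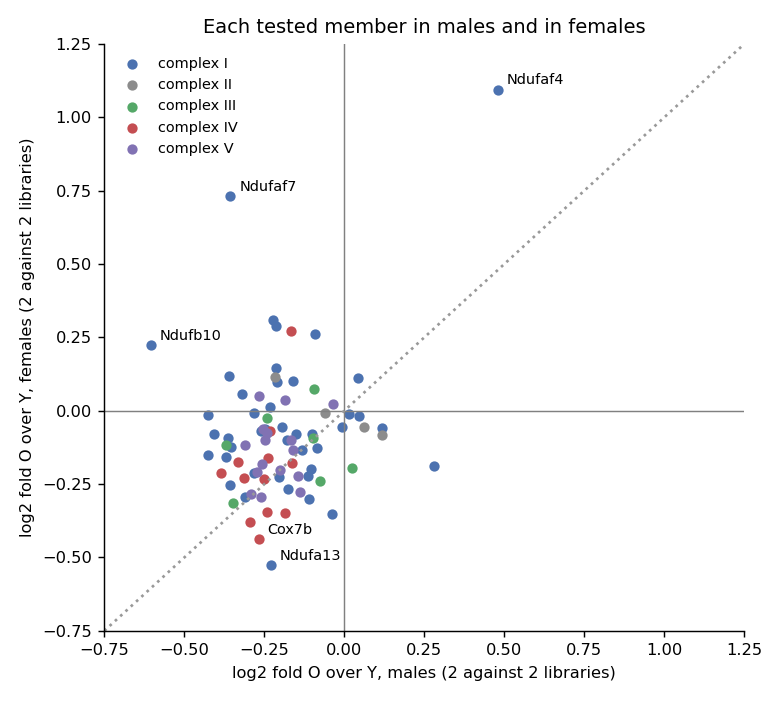
Log2 fold, O-titled over Y-titled, of each tested member in males (x axis) and in females (y axis), 2 libraries against 2 on each axis with TMM scaling; the dotted line marks equal folds. Most points lie left of 0 and below 0, Ndufaf4 is far above 0 on both axes, and Ndufb10 and Ndufaf7 are below 0 in males and above 0 in females, where neither difference was called.

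The genes around the members did not share one direction. Of 13 mitochondrially encoded subunits looked for, 10 were found among the counted genes, and the sums and counts below cover these alone. All 10 were tested, and 10 were lower in O-titled livers with TMM and 9 with library totals, where mt-Nd6 was at 0.01. Called was 1, mt-Nd4l, which fell by 0.61 on the log2 scale. Their sum was 72980 ± 7365 CPM in O-titled livers, against 91996 ± 15546 CPM in Y-titled ones, with overlap. In males it was 78629 against 82268 CPM, and in females 67330 against 101725 CPM, where Y-titled replicate 4 held 114887 CPM. In females 10 of 10 were lower on both scalings. Of these, 6 were called with TMM, against 5.47% of all genes, and 5 with library totals, against 5.68%. With TMM mt-Nd3 fell by 1.00 and mt-Co2 by 0.86 on the log2 scale in females, and in males 6 of 10 were lower with TMM and 5 with library totals, and 0 were called. The nuclear members had their larger median in males and the mitochondrial ones in females. The difference between the sexes was called for mt-Nd3 and mt-Co2 and for 0 nuclear members, and for mt-Co2 it was lost with library totals (adjusted p = 0.0591 by edgeR).

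Among electron carriers next to the complexes, Cycs, cytochrome c itself, was at 232 ± 18.1 against 304 ± 29.2 CPM (log2 fold -0.39, adjusted p = 0.0603 by edgeR). Etfdh, which feeds electrons from fatty acid oxidation to ubiquinone, fell from 168 ± 22.4 CPM in Y-titled to 121 ± 9.24 CPM in O-titled livers, a log2 fold of -0.47 with an adjusted p of 0.0355 by edgeR that became 0.0838 with library totals. The symbol rule also misses Cyc1, Usmg5 and Atpif1, which belong with complexes III and V. Their log2 folds were -0.23, -0.12 and 0.17, and none of these was called. Of 10 tested Coq genes, listed for coenzyme Q synthesis, 5 were lower, and the median log2 fold was -0.05. Called were 1 lower and 1 higher, against 4.01% of all tested genes. Coq8a fell by 1.06, from 276 ± 44.3 CPM in Y-titled to 135 ± 30.3 CPM in O-titled livers (adjusted p = 0.000246 by edgeR). Coq10b rose by 1.99 (adjusted p = 1.92e-05 by edgeR). Of 19 tested complex IV assembly factors 8 were lower and 1 was called: Sco2, a copper chaperone, fell by 1.03, from 29.9 ± 3.16 to 14.8 ± 1.04 CPM. With library totals a second, Cox19, was called higher, at a log2 fold of 0.59 (adjusted p = 0.0420 by edgeR), against 0.49 with TMM (adjusted p = 0.107). The other 10 tested complex I assembly factors had a median log2 fold of 0.12, with 2 lower and 0 called, and 0 lower with library totals. For 16 matrix enzymes that supply NADH or succinate the median was 0.00, with 8 lower and 0 called. Of 14 transcriptional regulators of mitochondrial genes 7 had enough reads to be tested, and 0 were called, 5 being lower and 2 higher. Their log2 folds were -0.38 for Polrmt, -0.32 for Yy1, -0.20 for Gabpa, -0.16 for Ppara, -0.14 for Tfam, 0.21 for Esrra and 0.31 for Tfb2m.

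Promoter sequences of the members were read as well, and any bearing on the differences above was not tested. RefSeq windows on GRCm38.p6, from 250 bases before to 50 bases after each start, were found by symbol for 75 of the 93 members, and were searched on both strands. The letters CGCATGCG, the core bound by nuclear respiratory factor NRF1, occurred in 13.8% of the members' 80 windows and in 1.87% of all 32851 windows. CCGGAAG, the core of ETS factors such as GABP, occurred in 22.5% against 8.86%, and AAGATGGC, a YY1 core, in 13.8% against 2.75%. TCAAGGTCA, the core of estrogen-related receptors, was in 2.50% against 0.423%, CCAAT in 42.5% against 37.4%, and TATAAA in 8 of 80 against 13.6%. The 32851 windows belong to 27025 genes, whereas 6759 genes had enough reads here, and the shares among those tested genes alone were not counted. Matches of different motifs may overlap, and a match is a description of the sequence and not a bound site.

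The 250 bases before the start are shown for the member with the smallest p in each of complexes I, III, IV and V whose RefSeq start lay near the 5′ end of its most-read transcript and whose window did not run into an annotated exon, 5′ to 3′ on the gene's strand, with matches to any of these motifs in capitals, a match on the opposite strand standing as its reverse complement. Ndufaf4, which was higher in every O-titled library than in any Y-titled one, holds an NRF1 core 112 bases before its start. Atp5e, the F1 epsilon subunit at 452 ± 24.1 against 512 ± 51.0 CPM, holds an ETS core and CCAAT letters on both strands. Uqcr10 and Cox7b, both lower, hold CCAAT letters alone, 10 and 233 bases before the start.
Ndufaf4, chr4:24897833-24898082, plus strand: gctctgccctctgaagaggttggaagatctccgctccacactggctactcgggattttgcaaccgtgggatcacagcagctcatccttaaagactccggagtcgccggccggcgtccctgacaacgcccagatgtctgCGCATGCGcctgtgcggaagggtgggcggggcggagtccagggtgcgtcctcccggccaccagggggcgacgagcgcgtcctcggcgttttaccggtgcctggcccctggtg
Uqcr10, chr11:4704345-4704594, minus strand: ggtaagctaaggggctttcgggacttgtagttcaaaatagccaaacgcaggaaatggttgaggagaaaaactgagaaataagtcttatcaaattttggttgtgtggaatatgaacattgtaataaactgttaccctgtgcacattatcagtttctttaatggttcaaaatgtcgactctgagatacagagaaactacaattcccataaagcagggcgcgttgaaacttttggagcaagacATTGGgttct
Cox7b, chrX:106015450-106015699, plus strand: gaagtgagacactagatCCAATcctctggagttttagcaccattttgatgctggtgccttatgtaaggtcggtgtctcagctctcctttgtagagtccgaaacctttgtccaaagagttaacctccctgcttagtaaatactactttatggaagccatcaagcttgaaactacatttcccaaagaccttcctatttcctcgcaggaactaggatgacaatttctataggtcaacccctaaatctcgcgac
Atp5e, chr2:174464102-174464351, minus strand: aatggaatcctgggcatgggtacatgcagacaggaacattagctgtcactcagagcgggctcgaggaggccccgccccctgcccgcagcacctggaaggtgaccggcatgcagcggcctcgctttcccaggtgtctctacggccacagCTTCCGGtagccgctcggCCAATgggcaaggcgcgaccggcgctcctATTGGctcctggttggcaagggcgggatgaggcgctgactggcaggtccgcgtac

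The members' transcripts are short, with a median of 838 bases and 4 exons for the most-read transcript, against 2636.5 bases and 9 exons over all tested genes. A gene's mean read length, as a share of the length of that transcript, had a median of 84.5% in members and 57.3% over all tested genes. Mean read length over the members was 717 ± 9.72 bases in O-titled and 717 ± 7.57 bases in Y-titled libraries. The 50 tested members under 1000 bases had a median log2 fold of -0.18 with 90% lower, and the 33 of 1000 bases or more a median of -0.12 with 75.8% lower. The 557 tested genes under 1000 bases that are no members had a median of -0.01 with 52.2% lower. For the 204 of these at 100 CPM or more the median was -0.05 with 62.7% lower, and for 81 cytosolic ribosomal protein genes it was -0.05 with 74.1% lower. The differences between these sets were not tested. The median coefficient of variation among libraries was 7.64% for members, 7.60% for the ribosomal protein genes, 10.1% for the 204 short nonmember genes, 12.5% for the nonmember genes at 100 CPM or more and 19.9% over all tested genes.

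Transcript choice was tested for the 31 members with at least 2 transcripts above the filter. For 0 of 31 was usage called different between the title groups, and 0 had an unadjusted p under 0.05; over all 1236 genes tested the shares were 0.0% and 0.647%. Of 85 members with 50 reads or more, 58 had at least 90% of their reads on 1 transcript. Ndufb2 had 75.6% of its reads on a transcript model of 4371 bases, although its reads averaged 504 bases, so the assignment of its reads to isoforms is uncertain.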

How the data were processed

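Direct RNA sequencing of poly(A)-selected liver RNA, with an adapter ligated to 5′ ends, was done on a MinION, per the labels' protocols. The deposited values were read counts per transcript for each of 8 libraries, with transcript and gene identifiers, per the file headers. The submitters' processing notes name minimap2 2.24, mm10 and DESeq2 without giving their roles, and how the authors assigned reads to transcripts is not given in the sources used here. Mapped reads ranged from 545171 to 2593200 per library, which sets the precision, and limits of detection cover counting error only.

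Counts were summed per gene, and identifiers were read against GENCODE M21. Genes passed edgeR's filterByExpr with a minimum count of 10. TMM scaling and edgeR 4.0.16 robust quasi-likelihood tests (R 4.3.3) used sex as a covariate, or groups of sex and title for the tests within a sex and of the difference between the sexes. Adjusted p-values follow Benjamini-Hochberg over all 6759 genes, and standard errors are the log2 fold over the root of F. Transcript usage was tested with edgeR in the same way. The scripts were tested on simulated data.

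Alternatives were DESeq2 size factors, library totals, no filter, DESeq2 1.42.0, limma 3.58.1 with voom, no covariate, a replicate block, other denominators, and leaving out each library. In each complex the named members were the 3 with the highest CPM, the 2 with the smallest p, those with the largest rise and fall, and those with the smallest p by sex and for the difference between the sexes, with all called members and the tissue isoform sets added. Ndufs1, Ndufs7, Ndufaf7, Ndufb2, Ndufb4, Uqcrc1, Uqcrc2, Cox5a and Atp5e were named after their values were seen. Members and lists were chosen with earlier results of these data known. Replicate numbers follow sex: same-numbered libraries correlated at 0.23 to 0.42 around the title means, and at -0.06 and -0.03 once sex was taken out, so they were not treated as pairs.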

Additional observations from a re-analysis of the deposited data

Results flagged for a closer look

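Of 78 groups of 4 libraries looked at, 3 had a library far from its others, where chance gives about 1 in 20. Ndufa13 was at 382.7 CPM in Y-titled replicate 1, with the other Y-titled libraries between 406.1 and 409.3 CPM. Cox6b1 was at 399.4 CPM in O-titled replicate 3, with the others between 363.6 and 365.5 CPM. The complex I sum was 6858 CPM in O-titled replicate 4, with the others between 6424 and 6466 CPM.

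The O-titled over Y-titled fold differed between females and males, by edgeR's test of that difference, for 2 mitochondrially encoded subunits. The female log2 fold minus the male one was -1.06 for mt-Nd3 (adjusted p = 0.0175) and -0.95 for mt-Co2 (adjusted p = 0.0343). Both genes were lower in both O-titled females than in either Y-titled female.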

How the results depend on the processing

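Counts of members called in O-titled against Y-titled livers were 0 in the reported edgeR fit and with DESeq2. With library totals 1 was called (Ndufaf4), against 5.03% of all genes. Without the filter 2 of 91 members were called, against 600 of 15751 genes. With limma voom 1 was called (Ndufa13), and its count over all genes is not given here. With each library left out 0 to 1 were called, Ndufaf4 being called without Y-titled replicate 1. In females 1 was called with library totals, 0 with DESeq2, and 0 to 2 with a library left out. Over all genes the calls were 600 without the filter, 134 without the covariate and 154 to 294 with a library left out for the title groups. They were 211 without the filter, 54 with DESeq2 and 31 to 127 with a library left out in males, and 184 with DESeq2 and 133 to 371 in females. They were 100 without the filter and 8 to 45 for the difference between the sexes, and 401 and 125 to 217 for females against males. With library totals the medians were -0.063 over all members and -0.040, 0.079, -0.051, -0.17 and -0.086 for complexes I to V, and 11 members did not overlap, with 2 in complex I, 1 in III and 1 in V. Log2 ratios of summed reads were -0.084, -0.057, -0.045, -0.17 and -0.079 for all members and complexes I, III, IV and V over all mapped reads, and -0.11, -0.081, -0.068, -0.19 and -0.10 without mitochondrially encoded genes. Named members near 0 turned sign. With library totals these were Sdhb at 0.044, Sdhd at 0.063, Uqcrq at 0.083, Atp5g2 at 0.088 and Atp5d at 0.019. Over all 83 tested members, 70 were lower with TMM and 59 with library totals, so members not listed here turned sign as well. With each library left out, Sdha ranged from -0.098 to 0.092, Sdhb from -0.13 to 0.086, Sdhc from -0.038 to 0.073, Sdhd from -0.067 to 0.013, Uqcrq from -0.041 to 0.061, Cox7a2l from -0.012 to 0.20 and Atp5g2 from -0.037 to 0.062. Sdha was at -0.00467 without the filter and -0.019 with limma voom. With the replicate block Sdha was at -0.000407, the member median was -0.16, 184 genes and 0 members were called, and no call of a member changed. The cause of these changes was not tested.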

Other observations

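Ndufb1-ps, which the symbol rule leaves out, is annotated in GENCODE M21 as a long noncoding RNA from a bidirectional promoter (chr12:101968090-101977068) and held between 145 and 689 reads per library. It stood at 289 ± 21.1 CPM in O-titled livers, against 303 ± 19.4 CPM in Y-titled ones (SD, n = 4), a log2 fold of -0.07 with an adjusted p of 0.813 by edgeR. Of the carriers and pores for nucleotides and phosphate, 6 were tested and 0 called. The inner-membrane carriers Slc25a3, Slc25a4 and Slc25a5 had log2 folds of -0.11, 0.04 and -0.08, and the outer-membrane porins Vdac1, Vdac2 and Vdac3 had 0.25, 0.09 and 0.04.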
